A study of Homo sapiens with 12 samples.

Results

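The transcripts of the SLC1 family of amino acid transporters were followed in HCT116 cells, a human colorectal cancer line, after silencing of hnRNP U. The members were the 5 genes SLC1A1 to SLC1A5, found by their gene identifiers among the 62703 genes of the count table. They were taken by family name, except SLC1A3, which was chosen by its strong fall in CPM with hnRNP U siRNA, so its siRNA values are given as a description with no test. Of the 5 members, 4 were among the 15920 genes that passed a filter on low counts, and SLC1A2 did not pass.

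The study asks how hnRNP U, an RNA-binding protein, acts on mRNAs that can fold into RNA G-quadruplexes (RG4s), structures held together by runs of guanines. Cells received either a control siRNA (called wild-type in the labels) or an siRNA against hnRNP U for 48 h, so every group carried an siRNA. Total RNA was sequenced beside heavy polysomal (HP) RNA, the RNA found with many ribosomes in a sucrose gradient. Each of the 4 conditions had 3 libraries, 1 from each of 3 independent experiments, with 30305012 to 39761103 counts assigned to genes per library. Levels are given in CPM, which are counts scaled to library size by TMM over the 12 libraries. CPM are relative to the rest of a library, so they carry no information on the amount of RNA per cell.

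SLC1 proteins are plasma membrane transporters that couple the uptake of amino acids to the sodium gradient. The family has a glutamate branch, which takes up glutamate and aspartate and clears glutamate from synapses in the brain, and a neutral branch, which exchanges alanine, serine, cysteine and, for one of its members, glutamine. In colorectal cancer cells the glutamine transporter of the neutral branch is known as a main route of glutamine entry.

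The silencing was seen in all 6 libraries that received hnRNP U siRNA. In total RNA, HNRNPU had 992, 1110 and 986 CPM in experiments 1, 2 and 3 with control siRNA and 168, 149 and 160 CPM with hnRNP U siRNA, which gave a fitted log2 fold change of −2.70 (SE 0.056, adjusted p = 3.1e-15 in the quasi-likelihood test of edgeR). The HP RNA value was −3.82 (SE 0.061, adjusted p = 3.8e-18 in edgeR). The libraries carried the RNA of an epithelial line, with 6 of 9 epithelial markers above 1 CPM and summed levels of 3870 to 4270 CPM in total RNA and 6750 to 8080 CPM in HP RNA. The intestinal marker CDX2 was present, with means of 18.2 CPM with control siRNA and 23.7 CPM with hnRNP U siRNA in total RNA. Other intestinal markers were not, as CDX1 had 0 counts in every library, and VIL1 and LGALS4 had at most 1 and 4. Of 5 astrocyte markers, the cells in which SLC1A2 and SLC1A3 are best known, none exceeded 1 CPM and their sum stayed at or below 0.43 CPM. None of 4 immune or 3 endothelial markers passed 1 CPM. Of 5 fibroblast markers, 1 did, COL1A1, with means of 16.7 CPM with control siRNA and 9.98 CPM with hnRNP U siRNA in total RNA. The summed fibroblast level was nearly all COL1A1, at 16.4 to 17.8 CPM with control siRNA and 9.71 to 10.7 CPM with hnRNP U siRNA in total RNA. Means of the other fibroblast markers were at or below 0.234 CPM. The part of these markers in the results was not tested.

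SLC1A3 encodes a glutamate and aspartate transporter, GLAST, that is abundant in astrocytes. The gene (ENSG00000079215) lies on the forward strand of GRCh38 at chr5:36596588-36688334. In total RNA it had 21.3, 23.9 and 21.2 CPM in experiments 1, 2 and 3 with control siRNA. With hnRNP U siRNA the same experiments had 4.08, 3.34 and 4 CPM, from 131 to 149 counts against 693 to 822. Every library with hnRNP U siRNA was far below every library with control siRNA. The fitted log2 fold change was −2.54 (SE 0.09, 95% interval −2.73 to −2.36), a level 5.83-fold lower. In RNA from whole cultures, fewer cells with a transcript and less of it per cell cannot be told apart.

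The same was measured in HP RNA. SLC1A3 had 19.7, 24 and 23.9 CPM with control siRNA and 4.13, 3.97 and 3.46 CPM with hnRNP U siRNA, again with no overlap between the groups. The log2 fold change was −2.59 (SE 0.11, 95% interval −2.81 to −2.36), a level 6-fold lower. By experiment, the log2 difference was −2.38, −2.84 and −2.41 in total RNA and −2.25, −2.60 and −2.79 in HP RNA. Those of HNRNPU itself were −2.57, −2.89 and −2.62 in total RNA and −3.63, −3.93 and −3.80 in HP RNA. In total RNA both genes had their lowest value in experiment 2, and in HP RNA they did not share the lowest experiment.

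Among all 15920 genes tested, SLC1A3 had the 53rd lowest log2 fold change in total RNA and the 66th lowest in HP RNA. Most of the genes below it had a mean under 3 on the log2 CPM scale over the 12 libraries. At a mean of at least 3, 1 gene was lower than SLC1A3 in total RNA and 2 were lower in HP RNA, HNRNPU included. This mean takes in the libraries with hnRNP U siRNA, so a strong fall itself lowers it. The small number of genes left therefore depends in part on the cutoff. SLC26A4 was the 1 other gene with an SLC symbol that was lower in each, at 0.511 CPM in total RNA with control siRNA (log2 fold change −2.79 in total RNA and −4.30 in HP RNA). These ranks describe the choice of SLC1A3 and are no evidence for it.

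**Figure D1:**
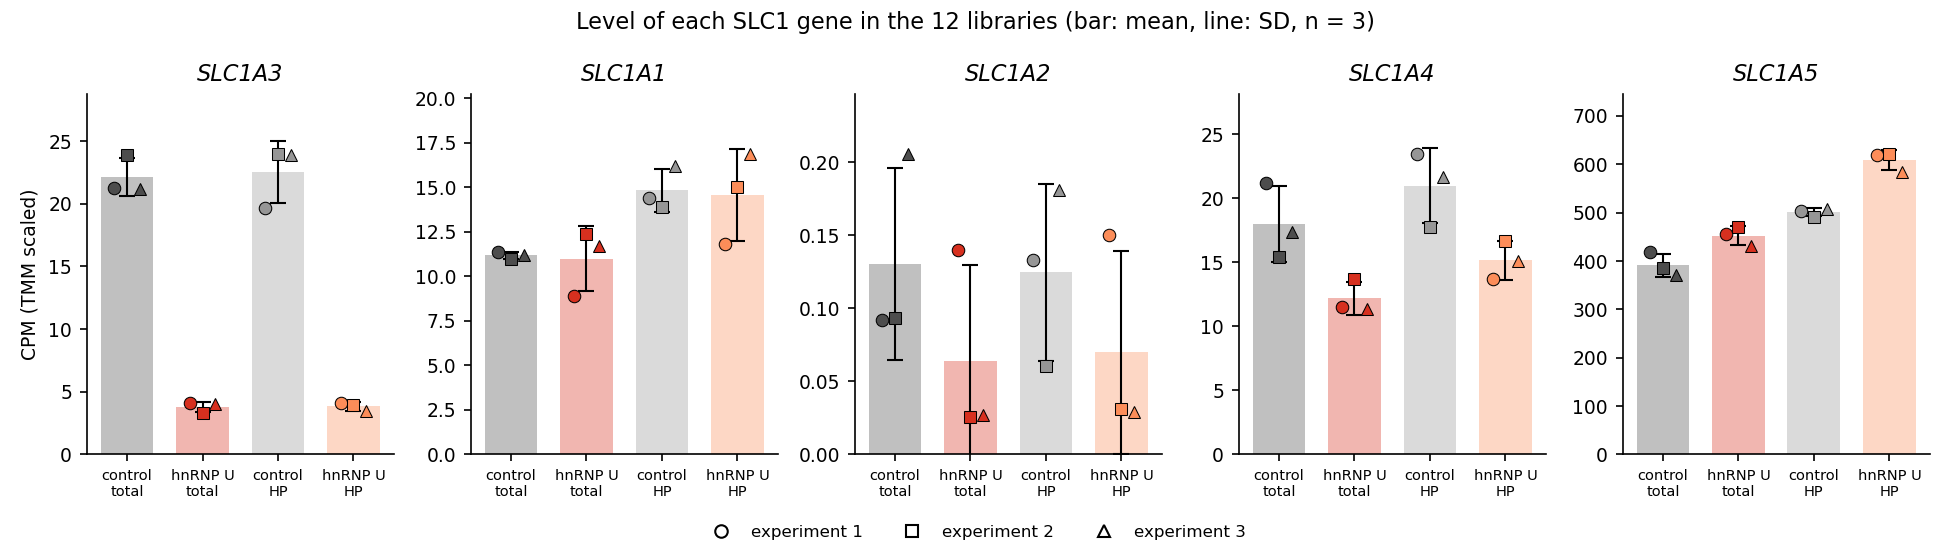
CPM of the 5 SLC1 members in each of the 12 libraries, 1 panel per gene with its own linear axis from 0, by siRNA and RNA fraction. Bars are means of 3 libraries, lines are SDs (cut at 0 for SLC1A2) and symbols are experiments. The SLC1A3 libraries with hnRNP U siRNA lie between 3.34 and 4.13 CPM, all below those with control siRNA.

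SLC1A1 encodes the other glutamate transporter that was detected, EAAC1, which also carries cysteine and is found in neurons and epithelia. The gene (ENSG00000106688) lies on the forward strand at chr9:4490468-4587469. In total RNA it had 11.4, 11 and 11.2 CPM with control siRNA and 8.92, 12.4 and 11.7 CPM with hnRNP U siRNA. The groups overlapped, because experiment 1 was lower with hnRNP U siRNA and experiments 2 and 3 were not. The log2 fold change was −0.027 (SE 0.10, 95% interval −0.24 to 0.18, adjusted p = 0.83 in edgeR). In HP RNA it had 14.4, 13.9 and 16.2 CPM with control siRNA and 11.8, 15.0 and 16.9 CPM with hnRNP U siRNA, which also overlapped (log2 fold change −0.062, SE 0.11, 95% interval −0.29 to 0.17, adjusted p = 0.67 in edgeR). Differences within these intervals were not detectable with 3 experiments.

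SLC1A2 encodes the main glutamate transporter of astrocytes, GLT-1, and was close to undetected. The gene (ENSG00000110436) lies on the reverse strand at chr11:35251205-35420063. It had 3 to 8 counts per library in total RNA with control siRNA and 1 to 5 with hnRNP U siRNA. In HP RNA it had 2 to 7 and 1 to 5 counts. Without the filter on low counts, a choice added after its values were seen, its log2 fold change was −1.07 in total RNA (95% interval −2.55 to 0.40, adjusted p = 0.37 in edgeR) and −0.87 in HP RNA (95% interval −2.42 to 0.67, adjusted p = 0.56 in edgeR). At this depth no difference was detectable, and the intervals are wide. The remaining genes of the family, both of the glutamate branch, were below this level, with SLC1A6 at 0 to 2 counts and SLC1A7 at 0 counts in every library.

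SLC1A4 encodes ASCT1, a neutral amino acid exchanger that carries serine, alanine and cysteine. The gene (ENSG00000115902) lies on the forward strand at chr2:64988477-65023865. In total RNA it had 21.2, 15.4 and 17.4 CPM with control siRNA and 11.5, 13.7 and 11.4 CPM with hnRNP U siRNA. It was lower with hnRNP U siRNA in all 3 experiments and the groups did not overlap. SLC1A4 fell by 0.56 on the log2 scale (log2 fold change −0.56, SE 0.10, adjusted p = 1.7e-04 in edgeR). In HP RNA it had 23.5, 17.8 and 21.7 CPM with control siRNA and 13.7, 16.7 and 15.1 CPM with hnRNP U siRNA, and its log2 fold change was −0.51 (SE 0.10, adjusted p = 4.0e-04 in edgeR), again without overlap. The size varied between experiments, from −0.88 in experiment 1 to −0.17 in experiment 2 in total RNA and from −0.78 to −0.092 in HP RNA. Experiment 2 had the lowest level with control siRNA and the highest with hnRNP U siRNA in both fractions.

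SLC1A5 encodes ASCT2, the glutamine transporter of the family. The gene (ENSG00000105281) lies on the reverse strand at chr19:46774883-46788594. In total RNA it had 418, 385 and 372 CPM with control siRNA and 456, 470 and 431 CPM with hnRNP U siRNA. It was higher with hnRNP U siRNA in all 3 experiments, without overlap, by 0.20 on the log2 scale (SE 0.048, 95% interval 0.10 to 0.30, adjusted p = 0.0016 in edgeR), a 1.15-fold difference. In HP RNA it had 503, 492 and 508 CPM with control siRNA and 619, 622 and 584 CPM with hnRNP U siRNA, and its log2 fold change was 0.25 (SE 0.049, 95% interval 0.14 to 0.35, adjusted p = 3.9e-04 in edgeR). The difference was thus small and larger than the spread between experiments in both fractions.

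Of the 3 members open to a test, 2 were called at an adjusted p under 0.05 in total RNA, SLC1A4 lower and SLC1A5 higher. Over all genes tested, 57.3% were called in total RNA, 28% higher and 29.3% lower. In HP RNA the same 2 members were called, where 51.7% of all genes were, 25.5% higher and 26.3% lower. A share of 2 in 3 is near these backgrounds, so the calls are not particular to the family. The neutral branch did not move one way, since SLC1A4 fell and SLC1A5 rose. In the glutamate branch SLC1A3 was chosen for its fall and SLC1A1 did not pass the test, so no direction is given for that branch.

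**Figure D2:**
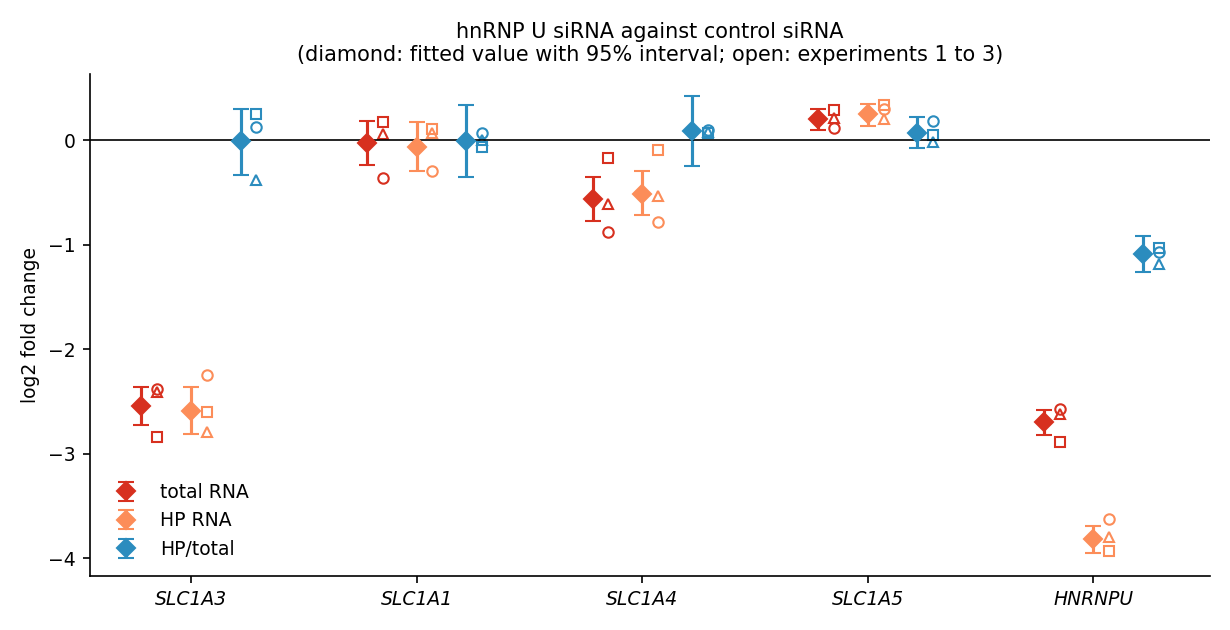
log2 fold change of hnRNP U siRNA against control siRNA for 4 SLC1 members and HNRNPU in total RNA, in HP RNA, and as the difference between both (HP/total). Diamonds are fitted values with 95% intervals and open symbols are experiments 1 to 3. SLC1A3 lies at −2.54 and −2.59 in the RNA fractions and at −0.012 in HP/total.

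The ratio of HP to total RNA asks whether the share of a transcript found with many ribosomes changed beyond its level in total RNA. A model of the 12 libraries gave it, as the interaction between siRNA and RNA fraction. For SLC1A3 the difference in this ratio was −0.012 on the log2 scale (95% interval −0.33 to 0.30), given with no test since it shares its libraries with the comparison that chose the gene. The experiments gave 0.13, 0.25 and −0.38, so they lay on both sides of 0. For SLC1A1 it was −0.0046 (95% interval −0.35 to 0.34, adjusted p = 1.0 in edgeR), for SLC1A4 0.085 (95% interval −0.25 to 0.42, adjusted p = 0.95 in edgeR) and for SLC1A5 0.072 (95% interval −0.072 to 0.22, adjusted p = 0.88 in edgeR). No member was called in this comparison by edgeR or DESeq2, 0 of the 3 tested, and none had an unadjusted p under 0.05. Over all genes, 0.163% were called. HNRNPU was one of these, with a log2 difference of −1.09 (SE 0.082, adjusted p = 2.3e-07 in edgeR). The intervals bound the 4 members, and they leave room for differences of up to about 0.42 on the log2 scale for SLC1A4 and 0.22 for SLC1A5.

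The comparison of HP with total RNA within each siRNA was not used to choose any member. It does use the libraries of the comparison that chose SLC1A3. With control siRNA, 2 of the 4 members were called, where 65.1% of all genes were called, 33.1% higher in HP RNA and 32% lower. SLC1A1 was higher in HP RNA by 0.41 on the log2 scale (SE 0.081, adjusted p = 4.6e-04 in edgeR) and SLC1A5 by 0.36 (SE 0.053, adjusted p = 3.1e-05 in edgeR), each in 3 of 3 experiments and without overlap. SLC1A3 had nearly equal shares of both kinds of RNA, 22.1 ± 1.55 CPM in total RNA and 22.6 ± 2.46 CPM in HP RNA (SD, n = 3), a log2 ratio of 0.031 (95% interval −0.15 to 0.21, adjusted p = 0.75 in edgeR). SLC1A4 lay between these, at 0.22 (95% interval −0.019 to 0.47, adjusted p = 0.096 in edgeR). It was higher in HP RNA in 3 of 3 experiments, and with the experiment as a replicate block the log2 ratio was 0.23 and the adjusted p = 0.0028 in edgeR. With no filter on low counts and no block, SLC1A4 was called too (0.24, adjusted p = 0.011 in edgeR), so its call depended on more settings than the pairing. It also passed the test without the control siRNA total RNA library of experiment 1 (log2 ratio 0.37, adjusted p = 0.0077 in edgeR) and without the control siRNA HP library of experiment 2 (0.34, adjusted p = 0.0096 in edgeR).

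With hnRNP U siRNA, 3 of the 4 members were called, all higher in HP RNA, where 68.1% of all genes were called, 34.4% higher and 33.7% lower. SLC1A5 had a log2 ratio of 0.40 (SE 0.044, adjusted p = 1.6e-07 in edgeR), without overlap. SLC1A1 had 0.38 (SE 0.12, adjusted p = 0.0092 in edgeR) and SLC1A4 0.28 (SE 0.09, adjusted p = 0.0093 in edgeR), and for both the libraries of the 2 fractions overlapped, although each experiment had the higher value in HP RNA. The SLC1A1 call was lost without the hnRNP U siRNA total RNA library of experiment 1 (0.26, adjusted p = 0.061 in edgeR) and without the hnRNP U siRNA HP library of experiment 3 (0.28, adjusted p = 0.054 in edgeR). SLC1A3 had 3.81 ± 0.407 CPM in total RNA and 3.86 ± 0.352 CPM in HP RNA (SD, n = 3), a log2 ratio of −0.0039 (95% interval −0.27 to 0.26, adjusted p = 0.98 in edgeR). Among the 4 members that passed the filter on low counts, SLC1A3 had the lowest ratio of HP to total RNA with both siRNAs, and its difference from the other members was not tested. Of the 9 epithelial markers, the 6 tested had a median log2 ratio of 0.76 with control siRNA, with 5 of them called higher, against −0.025 over all genes.

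**Figure D3:**
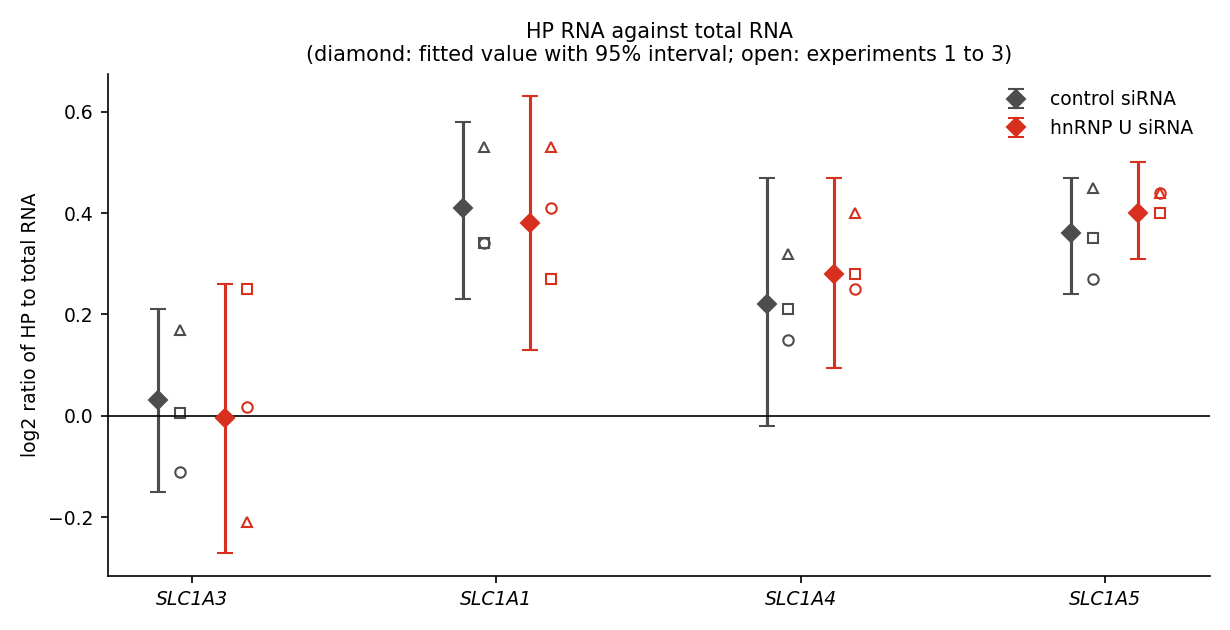
log2 ratio of HP to total RNA for 4 SLC1 members with control siRNA and with hnRNP U siRNA. Diamonds are fitted values with 95% intervals and open symbols are experiments 1 to 3. SLC1A5 and SLC1A1 lie above 0 with both siRNAs, and SLC1A3 lies at 0.031 and −0.0039.

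Levels of different genes were compared per kb of the canonical transcript. In total RNA with control siRNA, SLC1A5 had 136 ± 8.19 CPM per kb (SD, n = 3), far above SLC1A3 at 5.65 ± 0.395, SLC1A4 at 3.94 ± 0.647 and SLC1A1 at 3.03 ± 0.0568 CPM per kb. SLC1A2 had 0.0109 CPM per kb. The libraries of neighbours in this order did not overlap in total RNA with control siRNA. With hnRNP U siRNA the order of the lower members changed, with SLC1A1 at 2.98 ± 0.499 and SLC1A4 at 2.68 ± 0.290 CPM per kb, within their spread of each other, and SLC1A3 below both at 0.971 ± 0.104 CPM per kb. The order in HP RNA was the same within each siRNA, with SLC1A4 and SLC1A1 at 4.60 and 4.01 CPM per kb with control siRNA and 3.32 and 3.94 with hnRNP U siRNA. In HP RNA the libraries of SLC1A3 and SLC1A4 overlapped with control siRNA, as did those of SLC1A4 and SLC1A1 with both siRNAs. The rank of SLC1A3 in control cells depended on the length used. SLC1A3 has 60 annotated transcripts, and over the union of all its annotated exons it had 1.04 CPM per kb, below SLC1A1 at 2.82 and SLC1A4 at 2.59.

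As shares of the family's summed CPM per kb in total RNA, SLC1A5 made up 91.5% ± 0.175 with control siRNA and 95.9% ± 0.354 with hnRNP U siRNA (SD, n = 3). SLC1A3 made up 3.81% ± 0.374 and 0.596% ± 0.0831, and SLC1A4 2.65% ± 0.316 and 1.63% ± 0.121. The sum itself was 148 ± 8.74 CPM per kb with control siRNA and 163 ± 7.02 with hnRNP U siRNA in total RNA, and 189 ± 3.51 and 219 ± 7 in HP RNA. The summed level of the family was therefore carried by SLC1A5 in every condition.

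**Figure D4:**
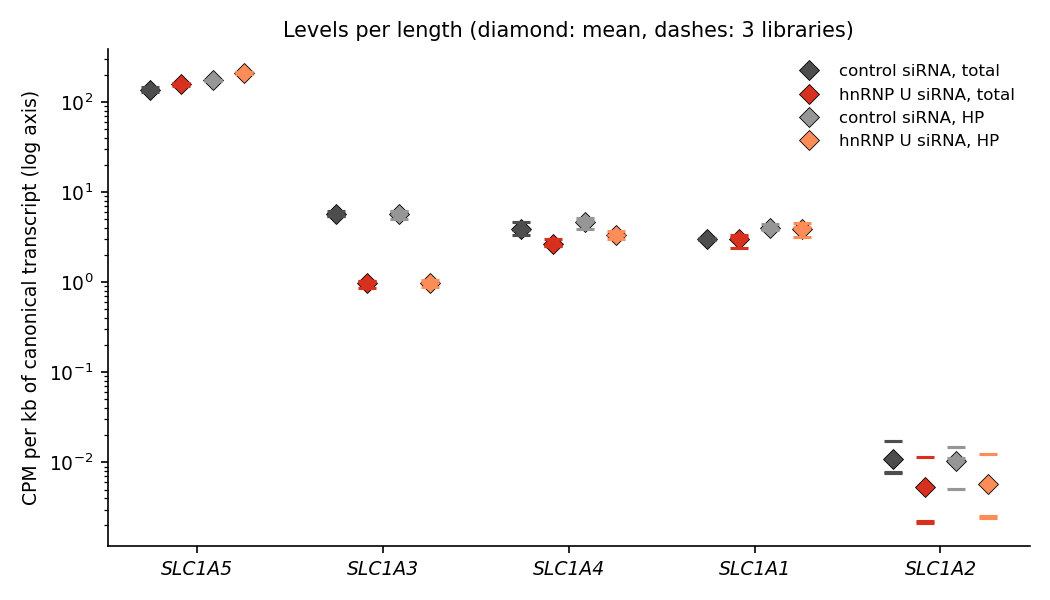
Mean level of each SLC1 member per kb of its canonical transcript on a log axis, by siRNA and RNA fraction. Diamonds are means and dashes the 3 libraries. SLC1A5 lies at 136 to 211 CPM per kb, and SLC1A3 moves from 5.65 to 0.971 CPM per kb in total RNA.

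RG4 motifs were sought because the study is about hnRNP U and RG4s. A motif was 4 runs, each of 3 or more G, joined by loops 1 to 7 nt long on the transcript's own strand. In canonical transcripts 3 of the 5 members held 1 each, shown here 5′ to 3′ with the G runs in capitals. They are the SLC1A1 3′ UTR motif at chr9:4585724-4585747, the SLC1A4 coding motif at chr2:64989794-64989819 and, on the reverse strand, the SLC1A5 coding motif at chr19:46787736-46787762 (GENCODE release 44, GRCh38).
SLC1A1: GGGttttGGGatttGGGtgtGGGG
SLC1A4: GGGGtgctggcGGGcgcGGGcctGGG
SLC1A5: GGGactGGGGGtgtcGGGGGccGGGGG
The canonical transcript of SLC1A3 held none, and 3 of its 60 annotated transcripts did. SLC1A2 held none in any of its 50 transcripts. Of the 12758 tested protein-coding genes, 26.7% had a motif in the canonical transcript, and among genes of like transcript length (up to 25% longer or 20% shorter) the share was 30.6% for SLC1A3 and 26.2% for SLC1A5. The member with the largest difference between siRNAs, SLC1A3, had no motif in its canonical transcript. Of the 3 members with one, SLC1A4 fell, SLC1A5 rose and SLC1A1 did not pass the test. Whether the motifs relate to these differences was not tested. A motif describes the letters and does not show that a structure forms.

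Matches to the siRNA seeds (bases 2 to 8 of the antisense strand) were counted in 3′ UTRs, since the members were measured only under siRNAs. The methods list a pair of hnRNP U siRNA sequences, and which one was sequenced is not given in the sources used here, so both were searched. Neither the match GTATGCT nor the match TTGTAGT occurred in the canonical 3′ UTR of any member, 0 of 5 each. Among genes with a 3′ UTR of like length to that of SLC1A3, 7.26% and 14.1% held them. The match CCCAAAT to the control siRNA occurred in the SLC1A1 3′ UTR at chr9:4586669-4586675, shown in capitals within its surroundings because it is the 1 match in a member's canonical 3′ UTR.
SLC1A1: tgttatcagggCCCAAATaacagtggcaa
The share of 3′ UTRs of like length with this match was 16.4%. In any annotated transcript, SLC1A3 held the control match too.

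Exact stretches shared between members were searched, since reads from them could be assigned to either gene. The longest stretch shared between canonical transcripts of any pair was 20 nt, between SLC1A1 and SLC1A3 and between SLC1A4 and SLC1A5, shown because these are the longest identical runs. Before trimming, the single reads named in the methods are longer than these stretches. Overall identity between members was not measured.
SLC1A1 and SLC1A3: ttcctgattgctgggaagat
SLC1A4 and SLC1A5: cctgtgggcatcatgttcct
Genes that overlap SLC1A3 and SLC1A4 on the opposite strand were checked. The methods name a directional library kit, but the strand setting of the counts is not given in the sources used here. Without that setting such reads cannot be told apart. SLC1A3-AS1 had at most 9 counts in any library, against 120 or more for SLC1A3. LINC02245, which overlaps SLC1A4, was higher by 0.66 (SE 0.21, adjusted p = 0.015 in edgeR) at 0.774 CPM in control total RNA, where SLC1A4 was lower.

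Of the nearest protein-coding genes on either side of SLC1A3, 1 was tested, and it was not called. NIPBL, a cohesin loader 188.4 kb beyond it, had a log2 fold change of 0.08 in total RNA (95% interval −0.016 to 0.18, adjusted p = 0.15 in edgeR) and −0.027 in HP RNA (95% interval −0.15 to 0.095, adjusted p = 0.72 in edgeR). RANBP3L, 294.5 kb before it, had 0 or 1 counts in each library.

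The 5 protein-coding genes whose pattern over the 12 libraries was most like that of SLC1A3 were NT5E, OXSR1, CRIM1, MACROH2A1 and ABCC3, with root mean square differences of 0.31, 0.34, 0.37, 0.40 and 0.43 between centred log2 CPM values, among 9543 candidates. Their log2 fold changes in total RNA were −1.95, −1.78, −1.76, −2.46 and −1.84. This likeness follows the siRNA difference that chose SLC1A3 and is a description only. For SLC1A1 the nearest patterns were those of TSPAN9, ANTXR2 and LIPA (0.078, 0.087 and 0.11). For SLC1A4 they were those of C4orf33, PNRC1 and PRIMPOL (0.11 each), and for SLC1A5 those of SMOX, POLR3C and NPRL3 (0.042, 0.042 and 0.045).

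Other amino acid transporters were described from lists chosen with earlier results known. Of 20 transporters of glutamine and neutral amino acids, 14 were tested, of which 5 rose and 3 fell in total RNA and 4 rose and 5 fell in HP RNA. Their median log2 fold change was 0.035 in total RNA and 0.0041 in HP RNA, against 4.7e-04 and 0.0067 over all genes. Of all genes tested, 28% rose and 29.3% fell in total RNA, and 25.5% and 26.3% did in HP RNA. SLC7A5, the large neutral amino acid exchanger LAT1, which trades glutamine for leucine and other essential amino acids, went from 958 ± 83.3 to 2070 ± 99.5 CPM in total RNA (SD, n = 3), so that its log2 fold change was 1.11 (SE 0.057, adjusted p = 1.2e-10 in edgeR). SLC3A2, its heavy chain partner, went from 280 ± 32.0 to 538 ± 36.8 CPM (log2 fold change 0.94, SE 0.065, adjusted p = 4.5e-09 in edgeR). The groups did not overlap for either gene. SLC43A2, a leucine transporter, rose by 0.65 on the log2 scale in total RNA. In HP RNA these 3 genes had log2 fold changes of 1.02, 1.04 and 0.63. The genes that fell in total RNA were SLC36A4 (log2 fold change −0.80), SLC38A3, a glutamine transporter at 2.13 CPM in control cells (−0.69), and SLC38A9, a lysosomal amino acid sensor (−0.50). In HP RNA they had −0.92, −0.54 and −0.53, and the SLC38A3 call there was lost without the hnRNP U siRNA library of experiment 3 (−0.45, adjusted p = 0.051 in edgeR).

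Of 6 cystine and cationic amino acid transporters, 3 were tested, with SLC7A1 higher (log2 fold change 0.41 in total RNA, 0.38 in HP RNA) and SLC7A2 lower (−0.44 and −0.65). Their median was 0.093 in total RNA. The shares of all genes beside these small lists were 28% higher and 29.3% lower in total RNA, and 25.5% and 26.3% in HP RNA. Of 7 vesicular and mitochondrial carriers of glutamate and aspartate, 4 were tested and 1 rose, the mitochondrial glutamate carrier SLC25A22, by 0.14 in total RNA (adjusted p = 0.015 in edgeR, up to 0.061 when 1 library was left out). The median was 0.054. Of 7 sodium pump subunits, which keep the gradient that drives SLC1 transport, 4 were tested and 2 fell in total RNA, ATP1B1 by 0.37 on the log2 scale and ATP1B3 by 0.17, with a median of −0.17. In HP RNA 1 of the 4 fell, ATP1B1 (−0.40), and ATP1B3 had −0.12 (adjusted p = 0.085 in edgeR). With the experiment as a replicate block ATP1B3 had −0.11 and passed the test (adjusted p = 0.024 in edgeR), as it did without the control siRNA HP library of experiment 1 (−0.15, adjusted p = 0.04 in edgeR) or of experiment 2 (−0.15, adjusted p = 0.044 in edgeR), while without that of experiment 3 it had −0.068.

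Enzymes that make or use glutamate, glutamine or aspartate moved both ways. Of 32, 29 were tested, of which 12 rose and 9 fell in total RNA, with a median of 0.098. In HP RNA 13 rose and 10 fell, with a median of 0.13. Among all genes, 28% rose and 29.3% fell in total RNA, and 25.5% and 26.3% did in HP RNA. OAT, which links ornithine and glutamate, rose from 164 ± 2.03 to 238 ± 5.56 CPM in total RNA (log2 fold change 0.53), GSS, which makes glutathione, had 0.51 and PFAS, a glutamine-using enzyme of purine synthesis, 0.41. GFPT2 and GFPT1, which use glutamine to make hexosamines, had log2 fold changes of −1.02 and −0.68, and ADSS1, which uses aspartate for purines, had −0.81. GLUD1 and GLUD2 are near-identical copies, so how reads were divided between them is uncertain. Of 7 listed genes of the amino acid response and MYC, all tested, 6 rose and none fell in total RNA (median 0.47). In HP RNA 5 rose (median 0.50). Of all genes, 28% were higher in total RNA and 25.5% in HP RNA. The list does not hold every gene of that response. ASNS and PSAT1, counted with the enzymes, had 2.97 ± 0.719 and 409 ± 50 CPM in total RNA with control siRNA (SD, n = 3). With hnRNP U siRNA they had 2.18 ± 0.446 and 435 ± 26.8 CPM. DDIT3, a stress response transcription factor, had a log2 fold change of 0.95 (SE 0.18), MYC 0.63 (SE 0.051) and CHAC1, a glutathione-degrading enzyme, 0.80 (SE 0.28). For CHAC1 the libraries overlapped, with 19.4 ± 14.0 CPM in control cells and 33.5 ± 3.45 CPM with hnRNP U siRNA (SD, n = 3), and its call in total RNA was lost with DESeq2, with all 12 libraries in 1 fit, and without experiment 2 or 3 of control siRNA or experiment 2 of hnRNP U siRNA. Its log2 fold change in total RNA moved to 1.56 without the control siRNA library of experiment 1 and to 0.46 without that of experiment 3. In HP RNA CHAC1 had 0.97, which became 1.66 and 0.63 without the same experiments and lost its call with DESeq2 (adjusted p = 0.15). In HP/total none of the 61 tested genes of these lists was called by edgeR or DESeq2, 0 in all, and 3 had an unadjusted p under 0.05 in edgeR.

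Set beside the other genes with an SLC symbol, a list made after values were seen, SLC1A3 stood near the lower end. Of 362 such genes 222 were tested, of which 67 rose and 75 fell in total RNA and 60 rose and 71 fell in HP RNA. A fall of at least 2-fold was called for 13 of them in total RNA and for 11 in HP RNA, and a rise of at least 2-fold for 3 and 4. Those that fell at least 2-fold in total RNA had mean levels of 0.324 to 20.2 CPM with control siRNA, from SLC5A11 (log2 fold change −1.34) to SLC9A8, a sodium-proton exchanger (−1.01). Among all genes, 28% rose and 29.3% fell in total RNA, and 25.5% and 26.3% did in HP RNA. The share of all genes with a 2-fold change was not counted, so the 2-fold counts have no background here.

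**Figure D5:**
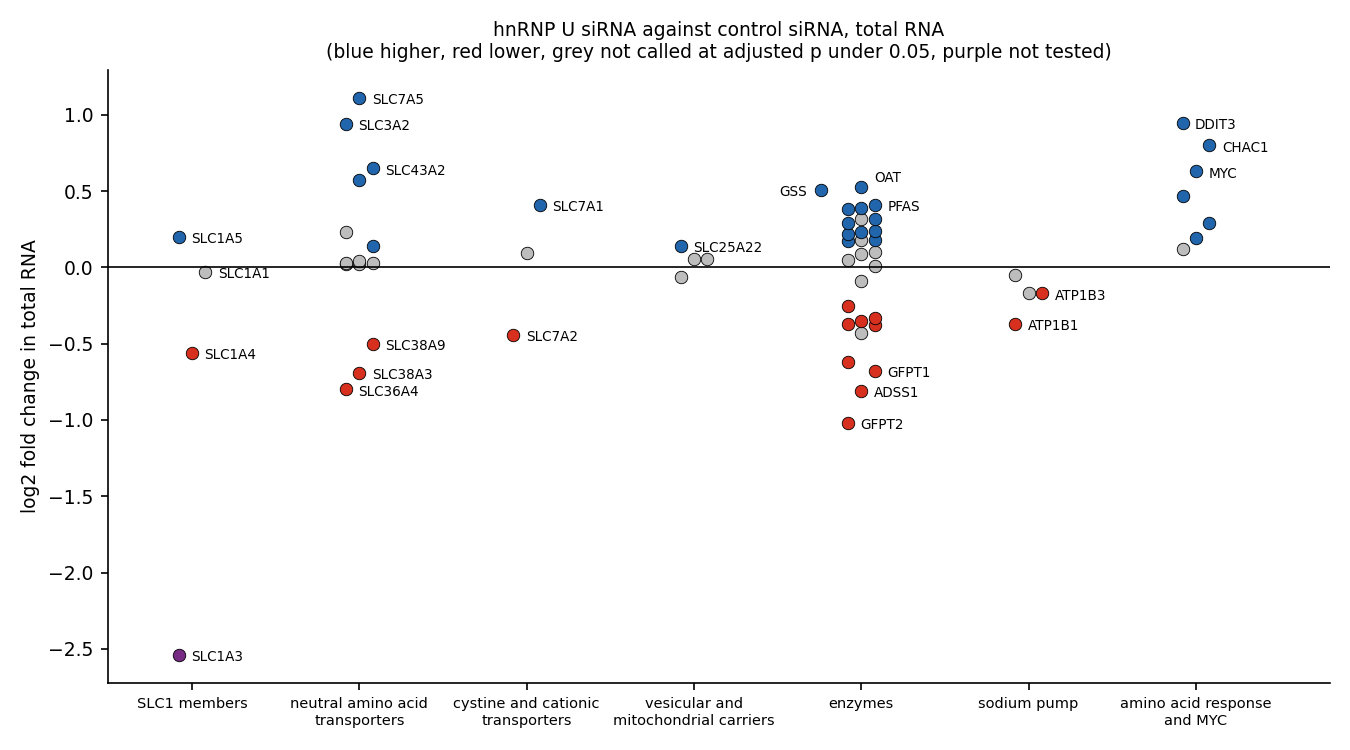
log2 fold change of hnRNP U siRNA against control siRNA in total RNA for 4 SLC1 members and the tested genes of 6 lists, 1 point per gene. Blue points are higher and red points lower at an adjusted p under 0.05, grey points are not called and purple SLC1A3 was not tested. SLC1A3 lies at −2.54, below every gene of the lists, whose values run from −1.02 for GFPT2 to 1.11 for SLC7A5.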

How the data were processed

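RNA-seq libraries of total and HP RNA were analysed, 12 in all. According to the methods, the authors trimmed reads with Trim Galore, aligned them to hg38 with STAR and deposited raw counts per gene of GENCODE release 43 with no normalization. The submitters' notes also name CASAVA 1.8. The methods name ERCC spikes, and the table has 0 ERCC rows. Library totals were 30305012 to 39761103 counts. Without molecular identifiers, a count is a count of reads and not of molecules.

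Names, coordinates and sequences came from GENCODE release 44 on GRCh38, in which 62686 of 62703 gene identifiers were found. Genes were kept by filterByExpr (minimum count 10) and tested by quasi-likelihood after TMM (edgeR 4.0.16, R 4.3.3), with Benjamini-Hochberg adjustment over all 15920 genes and a threshold of 0.05. Each fraction had its own fit, and HP/total was an interaction over 12 libraries. P-values of the main tests measure the spread between the 3 libraries of a condition, with no term for the experiment. Libraries of the same experiment number deviated together (correlations of 0.14 to 0.51 in each pair), so the numbers, shared in the labels, pair the libraries. The main tests left this pairing out, and the replicate block, an alternative, used it.

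Members and lists were chosen with earlier results of these data known. Named genes were the members, HNRNPU, SLC1A6, SLC1A7, the neighbours of SLC1A3, genes most like each member, and up to 3 called genes each way per list with the largest change in total RNA. SLC26A4, SLC5A11, SLC9A8, GLUD1, GLUD2 and overlapping genes were named after their values were seen. Alternatives were DESeq2 1.42.0, its size factors, upper-quartile factors, no filter, a minimum count of 50, a replicate block, all 12 libraries in 1 fit, leaving out each library, exon-union length and any annotated transcript. The tests were tested on simulated data. An overlapping gene is not reported here.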

Additional observations from a re-analysis of the deposited data

How the results depend on the processing

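Over 284 values of 4 members under these alternatives, 249 kept direction and, where tested, side of the threshold. Of the rest, 4 lost a call, 4 gained one and 27 changed sign, none of the latter a call. The siRNA and HP/total values of SLC1A3 had no test and were counted by direction alone. SLC1A3 stayed between −2.67 and −2.46 in both fractions. The replicate block made SLC1A4 called in HP against total RNA with control siRNA (0.23, adjusted p = 0.0028 in edgeR) and changed no other call of a member. That value also passed with no filter (0.24, adjusted p = 0.011 in edgeR). With hnRNP U siRNA, SLC1A1 in HP against total RNA lost its call with DESeq2 (0.38, adjusted p = 0.086) and SLC1A4 with upper-quartile factors (0.20, adjusted p = 0.066 in edgeR). The cause was not tested.

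Signs changed for SLC1A1 in HP/total at a minimum count of 50 (0.0083), for SLC1A3 in HP/total at that minimum (0.0014) and for SLC1A3 in HP against total RNA, with control siRNA under upper-quartile factors (−0.054) and a minimum count of 50 (−0.032), and with hnRNP U siRNA with no filter (0.013) and all 12 libraries (0.020). Leaving out 1 library gave SLC1A1 values of −0.13 to 0.11 in total RNA, −0.19 to 0.069 in HP RNA and −0.20 to 0.13 in HP/total. In HP/total SLC1A3 ran from −0.099 to 0.066, SLC1A4 from −0.12 to 0.19 and SLC1A5 from −0.051 to 0.11. In HP against total RNA, SLC1A3 ran from −0.0085 to 0.12 with control siRNA and from −0.088 to 0.089 with hnRNP U siRNA, SLC1A4 from 0.13 to 0.37 with control siRNA, and SLC1A1 from 0.26 to 0.52 with hnRNP U siRNA. Over exon unions the levels per kb in control total RNA were 2.82 for SLC1A1, 1.04 for SLC1A3, 2.59 for SLC1A4 and 118 for SLC1A5. In any transcript 2 members held the control siRNA seed match. Over all genes HP/total had 26 calls, and 49 with DESeq2, 61 with no filter, 78 with the replicate block and 140 with the culture as block. Of 20 named list genes, 18 kept their call in every setting in total RNA and 16 in HP RNA.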
